A study of Mus musculus with 5 samples.

Results

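A group of 73 array rows stood at least 4-fold above the E2.5 embryo at both E5.5 and E6.0, the egg cylinder stages (E is embryonic day). At E3.5 and E4.5 they stood close to or below it. They were taken from 15217 rows of a 2-colour cDNA array with values at all 5 stages, by their own ratios. The sources used here do not give the base of the deposited log ratios. These are read as log2, and every fold given here rests on that reading. The rule asked for a log2 ratio to E2.5 of at least 2 at both of these stages, of between -1 and 1 at E3.5, and of below 1 at E4.5. The values at those 4 stages chose the rows, so they are given below as a description and are not tested. E4.75 is the only stage that the rule did not use. It shares the E2.5 reference with the other stages.

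The mouse embryo hatches and attaches to the uterine wall after the blastocyst stage, and the inner cell mass then grows into an elongated egg cylinder. The epiblast becomes an epithelium, the visceral endoderm around it takes up and secretes nutrients and plasma proteins, and the trophoblast invades the decidua. Cell division is fast in this period, and dissected embryos can carry maternal tissue and blood.

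ICR embryos that had received no chemical treatment were used at every stage. The E2.5 reference embryos were flushed from the oviduct and the E3.5 embryos from the uterus, and all older embryos were dissected from the uterus. Each stage had 3 pools. A pool held 106 embryos on average for the E2.5 reference and 61 for E3.5. The mean was 47 for E4.5 and 28 for E4.75, and it was lowest for E5.5, with 17, and E6.0, with 19. The protocols write 4.8 and 6.5 days where the sample titles give E4.75 and E6.0, and the titles are followed here. There was 1 column of values per stage, so no ratio has a replicate error and no difference between stages could be tested. The E5.5 and E6.0 pools held the fewest embryos, and the amplification of cDNA was adapted to each stage, so stage, pool size and amplification cannot be told apart. A ratio of a whole embryo also cannot tell more cells of a type from more RNA per cell.

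The rows carry gene names only as labels of the platform annotation. Of the 73 rows, 42 had 1 symbol, 3 had several and 28 had none. Over all rows the share with 1 symbol was 53.0%, against 57.5% of the 73. Rows that share a symbol do not agree in this table, which is shown for these rows further below, so each symbol names a row and is not given as a measurement of that gene.

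The median log2 ratio of the 73 rows was -0.18 at E3.5 and -0.12 at E4.5. It was 0.55 at E4.75, and 3.19 and 3.65 at the later stages, E5.5 and E6.0. Where 5 values of a row follow each other below, they are log2 ratios in order of stage, from E3.5 to E6.0. The late medians correspond to 9.11-fold at E5.5 and 12.6-fold at E6.0. Over all 15217 rows 1.03% were at least 4-fold higher at E5.5, 1.32% at E6.0 and 0.940% at both, and 0.480% met the whole rule. These shares contain the rows themselves, and nothing is read from them. The level of the rows varied widely. At E6.0 31 of the 73 were at least 16-fold higher (log2 ratio of 4 or more). At E5.5 and E6.0 together 23 were so, against 33 of all 15217 rows, the 23 among them. Both stages chose the rows, so these counts are a description.

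**Figure D1:**
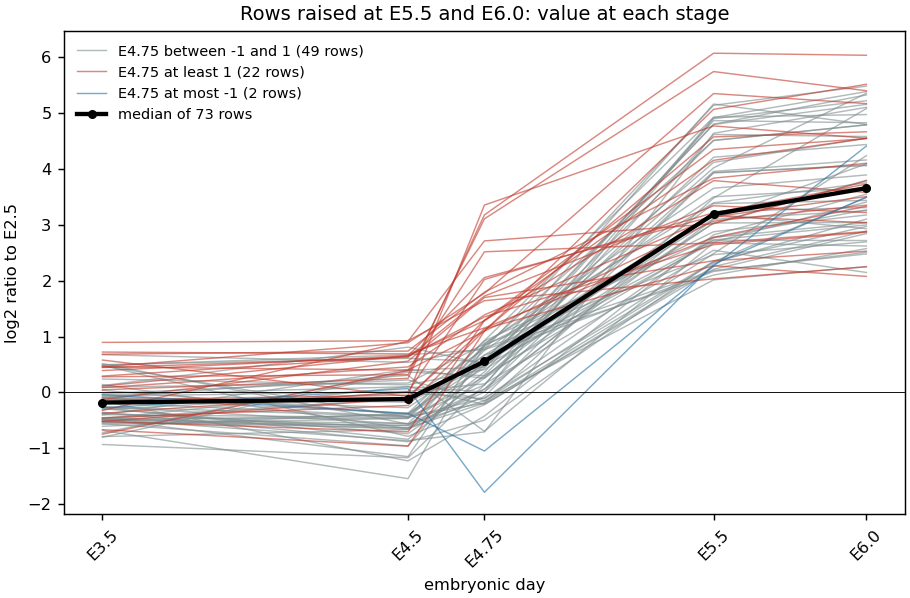
Log2 ratio to E2.5 (vertical axis) of the 73 rows against embryonic day (horizontal axis); each thin line is 1 row, coloured by its value at E4.75, and the thick line is the median. The median moved from -0.12 at E4.5 to 0.55 at E4.75 and to 3.65 at E6.0, and the 22 rows already at or above 1 at E4.75 spread up to 3.35 there.

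The first question was how far the rows had moved at E4.75, shortly after the start of implantation. At that stage 22 of the 73 rows were already at least 2-fold above E2.5, where 8.88% of all rows and 5.49% of the 13890 rows within the limits at E3.5 and E4.5 were. A further 49 rows lay within 2-fold of E2.5, and 2 were at least 2-fold lower, against 9.02% of all rows and 8.68% of those within the early limits. At least 4-fold higher were 7 of the 73, against 1.38% of all rows and 0.144% of the rows within the early limits, or 20 rows in all. Implantation is under way at E4.75, so a description as raised only after implantation goes against the values of these 22 rows. The other 51 were below 2-fold there. Of the 22, those labelled Commd5, Ints6l, Abhd4 and Nipbl and row 11898 came within 2-fold with columns scaled to one spread. With early limits of 0.5 the rule took 42 rows, and 7 of them were at least 2-fold higher at E4.75. That is a smaller part than 22 of 73, so the count depends on the early limits. The share over all rows within limits of 0.5 was not counted.

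The 7 rows that were past 4-fold at E4.75 include 3 with 1 symbol. The row labelled Shmt1, a cytosolic enzyme of one-carbon metabolism, read -0.13, -0.05, 3.35, 4.77 and 4.55 over the 5 stages. The row labelled Psmd2, a subunit of the regulatory particle of the proteasome, read 0.05, 0.25, 3.18, 6.07 and 6.03. Both lay near the E2.5 level at E4.5 and well above it at E4.75. The row labelled Rpusd4, a mitochondrial pseudouridine synthase, read -0.32, 0.91, 2.71, 3.02 and 3.78. The unnamed row 66 read 0.28, 0.32, 3.10, 5.74 and 5.40, a course close to that of the Psmd2 row. The unnamed row 4694 read -0.75, 0.39, 2.51, 2.68 and 2.88, so nearly all of its late level was present at E4.75. The unnamed row 2039 read 0.39, 0.65, 2.05, 3.15 and 3.04, and row 12274, also unnamed, stood at 2.02 at E4.75.

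The opposite end of the E4.75 values held rows that were low at E4.75 and high afterwards. The row labelled Ehd4, an ATPase of endocytic recycling, read -0.28, 0.07, -1.79, 2.29 and 3.49. Row 9198, to which the annotation gives several symbols, read -0.04, -0.38, -1.05, 2.26 and 4.41. No other of the 73 rows was at least 2-fold below E2.5 at E4.75, and with columns scaled to one spread row 9198 stood at -0.95, within 2-fold. The row labelled Rnf122, a membrane RING-finger ubiquitin ligase, read -0.47, -0.86, -0.71, 4.63 and 5.10, and its difference of 5.34 between E4.75 and E5.5 was the largest of the 73. The remaining 3 rows of the lowest 6 at E4.75 were unnamed and lay within 2-fold there. Row 7389 read -0.09, 0.31, -0.70, 2.67 and 2.62. Row 13492 read -0.36, -0.88, -0.50, 2.35 and 2.97. Row 12724 read -0.16, -1.22, -0.42, 2.82 and 3.55.

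**Figure D2:**
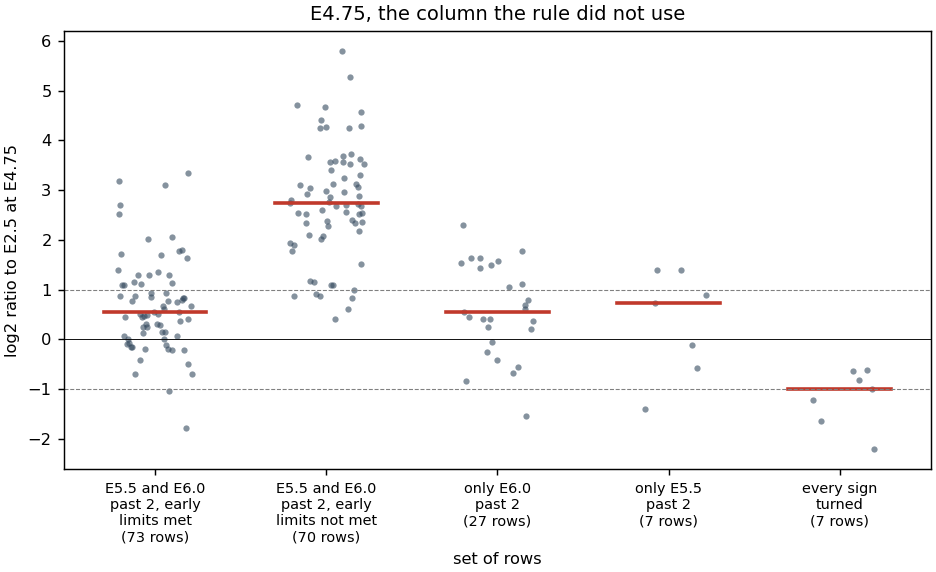
Log2 ratio to E2.5 at E4.75 (vertical axis) for 5 sets of rows (horizontal axis); each point is 1 row, the red bar is the median of the set and the dashed lines mark 2-fold. The 73 rows centre on 0.55 and the 70 rows outside the early limits on 2.74.

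Rows chosen by other limits give a setting for these E4.75 values. Another 70 rows were past 4-fold at both E5.5 and E6.0 but outside the early limits, and 66 of them were already at least 2-fold higher at E4.5. At E4.75 their median was 2.74 and 63 of 70 were at least 2-fold higher. From E4.75 to E5.5 the median difference was 0.08 in those 70 rows and 2.75 in the 73. The rule shapes this contrast, since it keeps rows that are low at E4.5. A further 27 rows met the early limits and passed 4-fold at E6.0 only. They had a median of 0.54 at E4.75, with 10 at least 2-fold higher, and a median of 1.45 at E5.5. The 7 rows that passed at E5.5 only had a median of 0.74 at E4.75, and all 7 were still at least 2-fold higher at E6.0.

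With every sign turned, the rule took 7 rows, or 0.0460% of all rows, against 73 in the direction described. At E4.75 4 of those 7 were at least 2-fold lower, and their medians were -2.36 at E5.5 and -2.49 at E6.0. Both counts come from the stages that the rule used and are a description. The turned limit at E4.5 also leaves out more rows, since 1409 of all rows were at or below -1 there and 707 at or above 1. The direction rests on the sample titles, which give each value as a ratio to E2.5.

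Every step between stages starts or ends at a stage that the rule used, so the steps are a description. From E3.5 to E4.5 the median difference was 0.03, with 37 rows higher and 36 lower. From E4.5 to E4.75 the median difference was 0.74 and 62 of 73 rows were higher, where 62.7% of the rows within the early limits were higher. In 28 rows this step was at least 2-fold, against 3.93% of the rows within the early limits. From E4.75 to E5.5 all 73 were higher, as the rule nearly forces, and the differences ran from 0.16 to 5.34. From E5.5 to E6.0 58 of 73 were higher, where 53.2% of all rows were. That last difference had a median of 0.27. It was at least 2-fold upward in 6 of the 73 rows, against 1.24% of all rows, and at least 2-fold downward in 0 of 73, against 0.966% of all rows. Both stages chose the rows, so nothing is read from these shares.

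Among the 4 largest gains from E5.5 to E6.0, row 9198 differed by 2.15 and the unnamed row 4043, which read 0.52, -0.57, -0.15, 2.48 and 4.23, by 1.75. The row labelled Tax1bp1, an autophagy receptor, read -0.26, -0.44, -0.19, 3.48 and 5.08. The row labelled Snph, syntaphilin, which anchors mitochondria to microtubules in axons, read -0.72, 0.40, 0.45, 4.02 and 5.35. These rows had not reached their highest level at E5.5. The 4 lowest differences between these stages were small, at -0.40 for the row labelled Pdrg1, -0.36 for Lars, -0.34 for row 66 and -0.26 for Cul2. The Pdrg1 row read -0.07, 0.02, 0.15, 2.54 and 2.15. In the rows other than the 6 with a large gain, E5.5 and E6.0 therefore differed by less than 2-fold.

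**Figure D3:**
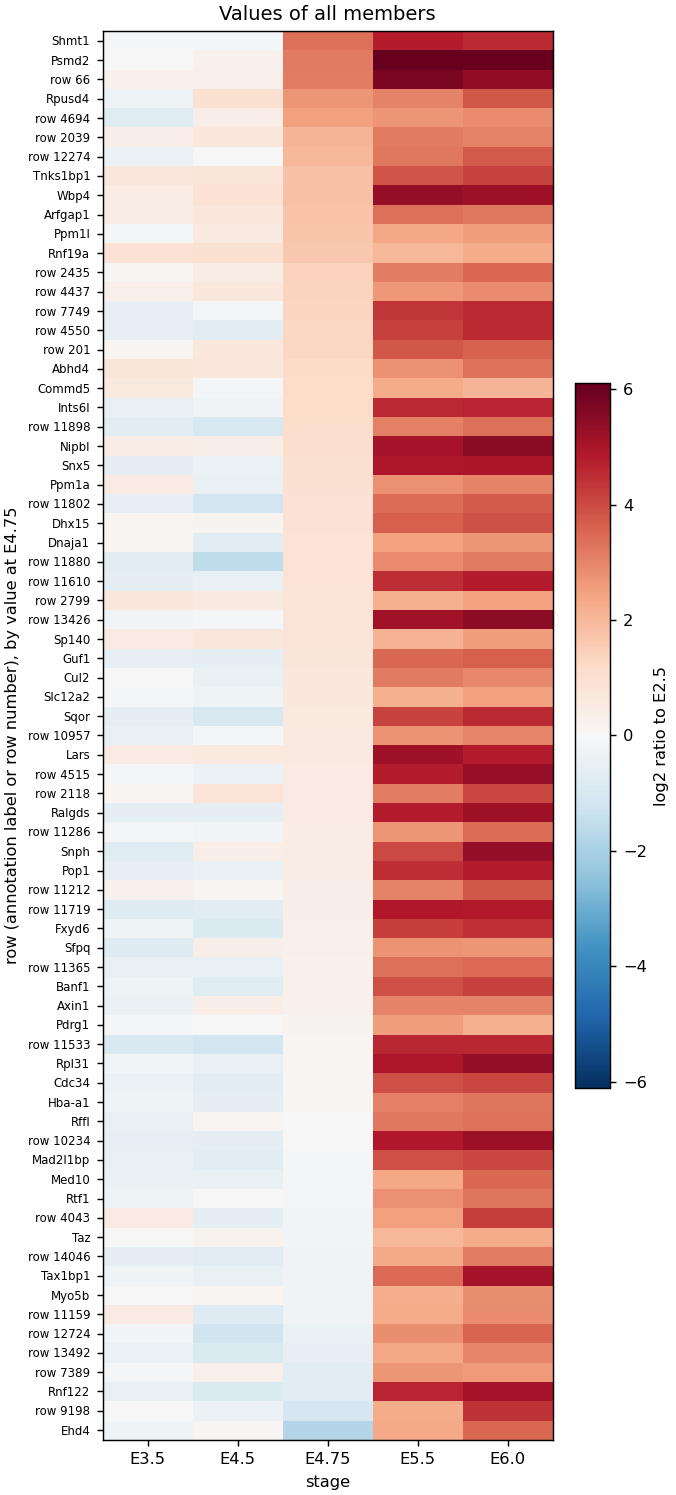
Log2 ratio to E2.5 (colour) of all 73 rows (vertical axis, by the annotation's label or the row number, ordered by the value at E4.75) at the 5 stages (horizontal axis). The top 22 rows are at or above 1 at E4.75, the bottom 2 (row 9198 and Ehd4) are below -1, and all rows are above 2 at E5.5 and E6.0.

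The 12 rows with the highest mean of E5.5 and E6.0 held 4 without a symbol, row 66 among them. Row 13426 read -0.17, -0.12, 0.77, 5.14 and 5.48. Row 4515 read -0.10, -0.38, 0.51, 4.797 and 5.32. Row 10234 read -0.50, -0.59, 0.0049, 4.90 and 5.22. These 3 lay within 2-fold of E2.5 up to E4.75 and were past 16-fold at both late stages. The other 8 of the 12 carry the labels Psmd2, Nipbl, Wbp4, Rpl31, Lars, Ralgds, Snx5 and Rnf122.

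The 42 labels are next given by the known role of the gene named. This arrangement into 8 groups was made after the values were seen and orders the text only. Of the 8 rows with labels of RNA processing and protein synthesis, 4 were past 16-fold at E6.0. The row labelled Lars, the cytosolic leucyl-tRNA synthetase, read 0.50, 0.61, 0.55, 5.16 and 4.79. The row labelled Rpl31, a protein of the large ribosomal subunit, read -0.18, -0.43, 0.13, 4.92 and 5.38. Both were flat to E4.75 and high at E5.5. The row labelled Wbp4, a spliceosome-associated protein, read 0.46, 0.89, 1.77, 5.35 and 5.17, so it was already past 2-fold at E4.75. The row labelled Pop1, a subunit of RNase P and RNase MRP, read -0.51, -0.40, 0.44, 4.51 and 4.79. The other 4 rows were lower, between 2.72 and 3.89 at E6.0, and include Rpusd4 and Dhx15, a splicing helicase. The row labelled Guf1, a mitochondrial translation factor, read -0.49, -0.56, 0.75, 3.50 and 3.65. The row labelled Sfpq, a splicing factor, read -0.80, 0.36, 0.30, 2.72 and 2.72.

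Of the 6 rows with labels of the ubiquitin and proteasome system, E6.0 values ran from 2.25 to 6.03. The Psmd2 row was the highest of all 73 at E5.5 and E6.0, at 67.1-fold and 65.4-fold over E2.5. Rnf122 was given above. The row labelled Cdc34, a ubiquitin-conjugating enzyme, read -0.37, -0.64, 0.06, 3.93 and 4.06. The row labelled Cul2, a cullin scaffold, read 0.04, -0.39, 0.67, 3.19 and 2.93. Both were within 2-fold of E2.5 up to E4.75. The row labelled Rffl, a RING-finger ligase, stood at 3.31 at E6.0. The row labelled Rnf19a, a ligase of the RBR class, was among the 3 nearest to the limit at E4.5 and at both late stages, with 0.89, 0.92, 1.64, 2.03 and 2.25.

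Labels of transcription and chromatin were given to 6 rows. The row labelled Nipbl, which loads cohesin onto chromatin, read 0.46, 0.40, 1.10, 5.06 and 5.51. The row labelled Ints6l, a paralogue of an Integrator subunit, read 1.11 at E4.75 and 4.66 at E6.0. The row labelled Banf1, which bridges chromatin and the nuclear envelope, read 0.25 at E4.75 and 4.16 at E6.0. These 3 were past 16-fold at E6.0. The row labelled Med10, a Mediator subunit, read -0.40, -0.45, -0.10, 2.34 and 3.49. The row labelled Rtf1, an elongation factor associated with the PAF complex, read -0.31, -0.0043, -0.11, 2.77 and 3.26. The row labelled Sp140, a chromatin reader of immune cells, stood at 2.57 at E6.0.

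Labels of membrane traffic and motors were given to 5 rows, Ehd4 and Snph among them. The row labelled Snx5, a sorting nexin of endosomes, read -0.61, -0.37, 0.93, 4.92 and 4.97. The row labelled Arfgap1, which regulates Golgi coats, read 0.44, 0.63, 1.72, 3.34 and 3.22. The row labelled Myo5b, a vesicle motor, read -0.04, 0.10, -0.21, 2.20 and 2.84. Arfgap1 was past 2-fold at E4.75, and Snx5 and Myo5b were not. In the signalling group the row labelled Ralgds, an exchange factor for Ral GTPases, read -0.54, -0.59, 0.48, 4.79 and 5.15. The rows labelled Axin1, the scaffold of the complex that degrades beta-catenin, and Ppm1l, a protein phosphatase, read 3.04 and 2.53 at E6.0. The row labelled Ppm1a, also a protein phosphatase, read 0.48, -0.44, 0.92, 2.77 and 3.03. Only Ralgds of these 4 was past 16-fold.

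Metabolic labels were given to 4 rows, with Shmt1 the earliest. The row labelled Sqor, which oxidises sulphide in mitochondria, read -0.56, -0.96, 0.60, 4.11 and 4.55. The row labelled Abhd4, a lipase of N-acyl phospholipids, read 0.72, 0.69, 1.15, 2.78 and 3.33. The row labelled Taz, here tafazzin of cardiolipin remodelling, stood at 2.25 at E6.0. Of these 4 rows Shmt1 and Abhd4 were past 2-fold at E4.75. The row labelled Fxyd6, a regulator of the sodium pump, read 4.43 at E6.0, and that labelled Slc12a2, a sodium, potassium and chloride cotransporter, read -0.11, -0.27, 0.67, 2.16 and 2.51. The 6 labels left are Dnaja1, a co-chaperone, Mad2l1bp, a spindle checkpoint protein, Pdrg1, Tnks1bp1, which binds tankyrase, Commd5 and Tax1bp1, and their rows ran from 2.07 to 5.08 at E6.0. The Dnaja1 row read 0.14, -0.65, 0.85, 2.46 and 2.69. Across the 8 groups the E6.0 medians lay between 3.04 and 4.34, and each group overlapped every other group.

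Hba-a1, an alpha chain of adult haemoglobin, was the only label among the 73 from a list of maternal decidua and blood. Its row read -0.26, -0.56, 0.06, 3.10 and 3.25. Of the other 6 rows labelled Hba-a1, 1 was past 2-fold upward at E6.0, at 1.22, 1 was at least 2-fold lower, at -1.16, and none reached 1 at E5.5. The whole list had 17 rows whose medians were 0.0068 at E5.5 and -0.13 at E6.0, and 2 of 17 were at least 2-fold higher at E6.0. Their part in the values of the 73 rows was not tested.

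Lists of genes known for these stages were set against the rows. Over 13 lists, written with earlier results of these data known, 166 symbols were measured on 222 rows. Of these rows 24 were at least 2-fold higher at E6.0, which is 10.8% against 7.65% of all rows with 1 symbol, and 2 were among the 73 (Hba-a1 and Snph). Members were thus 0.901% of the list rows, against 0.521% of all rows with 1 symbol, and at that share lists of this size hold few members or none. None of the 10 rows of post-implantation epiblast and gastrulation genes, the 14 of visceral endoderm and yolk sac, the 14 of extra-embryonic ectoderm and trophoblast or the 22 of parietal endoderm and basement membrane was among the 73. At E6.0 these 4 lists had 1, 1, 2 and 2 rows at least 2-fold higher, and medians of 0.15, -0.09, 0.0048 and 0.10. Extracellular matrix and adhesion had 4 of 26 rows at least 2-fold higher, glycolysis and hypoxia 2 of 16, cell cycle 2 of 28, imprinted and growth genes 1 of 14, naive pluripotency 2 of 10, oocyte and cleavage 2 of 26 and embryonic haemoglobin 0 of 5, with no row among the 73. The list of vesicle traffic and SNAREs had 4 of 23, with Snph among the 73; that list was drawn up with the high Snph and Stx12 rows known.

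The member rows were then set beside the rows of the same symbol that the rule did not take. Of the 42 symbols, 19 had other rows, 35 in all, and no symbol had more than 1 row among the 73. At E5.5 none of the 35 was at least 2-fold higher, where 4.90% of all rows were, and at E6.0 1 was, where 7.33% of all rows were. At E6.0 3 were at least 2-fold lower, against 6.82% of all rows. Their median was -0.16 at E5.5 and -0.09 at E6.0, and at E6.0 they ran from -1.79 to 1.22. All lay below the member row of their symbol. The selection nearly forces that order, since members were chosen for high late values and these rows were left out. The other row labelled Psmd2 read -1.35 at E5.5 and -0.94 at E6.0 beside 6.07 and 6.03 for the member. The 2 other rows labelled Nipbl read 0.30 and 0.78 at E6.0 beside 5.51, and the 3 other rows labelled Sfpq read -0.07, 0.11 and 0.19 beside 2.72.

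For 3 symbols the annotation assigns the member and another row to the very same sequence record. The rows labelled Rpl31, which lie next to each other in the table, read 5.38 and 0.02 at E6.0. The neighbouring rows labelled Med10 read 3.49 and -0.46. The row labelled Hba-a1 among the 73 shares its record with 5 neighbouring rows that read from -1.16 to 0.80. Rows that the annotation derives from 1 record thus differed by 2.45 or more on the log2 scale at E6.0 in each of these 3 cases. Whether the labels or the values of the member rows account for this was not tested. The other 23 symbols had 1 row each, so they could not be compared this way.

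**Figure D4:**
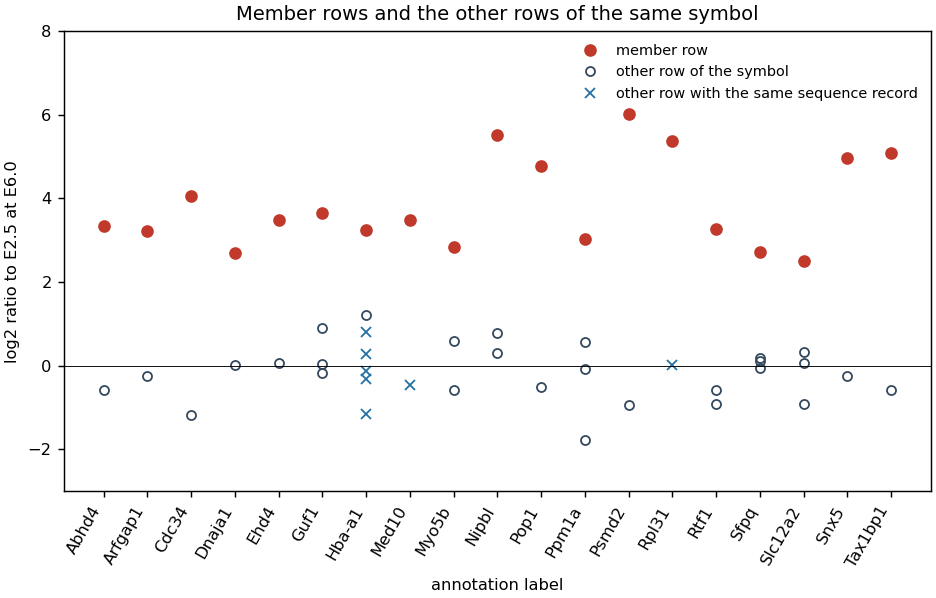
Log2 ratio to E2.5 at E6.0 (vertical axis) for the 19 symbols with several rows (horizontal axis); filled circles are the rows among the 73, open circles other rows of the symbol, and crosses other rows with the same sequence record. Each filled circle lies above all other marks of its symbol, and the other marks run from -1.79 to 1.22. The filled circles were chosen for high values, which nearly forces this order.

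The rows were spread unevenly over the order of the table. Rows 11001 to 12000 held 19 of the 73 among 997 rows with all values, which is 1.91% of them, against 0.480% over the whole table. The next stretch of 1000 rows held 9, and no other held more than 7. In rows 11001 to 12000 27 rows were at least 4-fold higher at E6.0, or 2.71% of them, and 19 of these 27 were the members. In rows 2001 to 3000, which held 7 members, 36 rows (3.60%) passed 4-fold at E6.0. The stretch from row 11001 was singled out after its count was seen. The median of all rows in it was -0.02 at E5.5, with 0.0029 at E6.0, so its typical row lay close to E2.5. The sources used here do not say what the row order stands for on the slide.

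The early values of the 19 rows, which the rule used, are given as a description. Of the 19, 16 were below 0 at both E3.5 and E4.5, against 20 of the 54 other rows and 29.9% of all rows within the early limits. Their median course over the 5 stages was -0.48, -0.59, 0.44, 3.50 and 3.79. They include the rows labelled Pop1, Banf1, Ralgds, Sqor, Hba-a1, Guf1, Rpl31, Mad2l1bp and Abhd4, and of these only Abhd4 was above 0 at E3.5 and E4.5, at 0.72 and 0.69. The other exceptions were row 11212, at 0.24 and 0.13, and row 11159, at 0.48 and -0.79. At E4.75 2 of the 19 were at least 2-fold higher, against 20 of the other 54. The 19 started lower, with a median of -0.59 at E4.5 against 0.04 in the other 54. The share over all rows of the stretch was not counted, so nothing is read from this difference. Without the stretch the median at E4.75 was 0.72 in place of 0.55.

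The 145 rows directly before or after a member had medians of -0.08 and -0.04 at the late stages. Of these rows 9 (6.21%) were at least 2-fold higher at E6.0, against 7.33% of all rows, and 2 of the 9 were members. Members lay within 3 rows of another member in 6 cases, 3 pairs in all. The closest pair was Snx5 and Cdc34, in rows 12086 and 12087, which read 4.97 and 4.06 at E6.0.

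**Figure D5:**
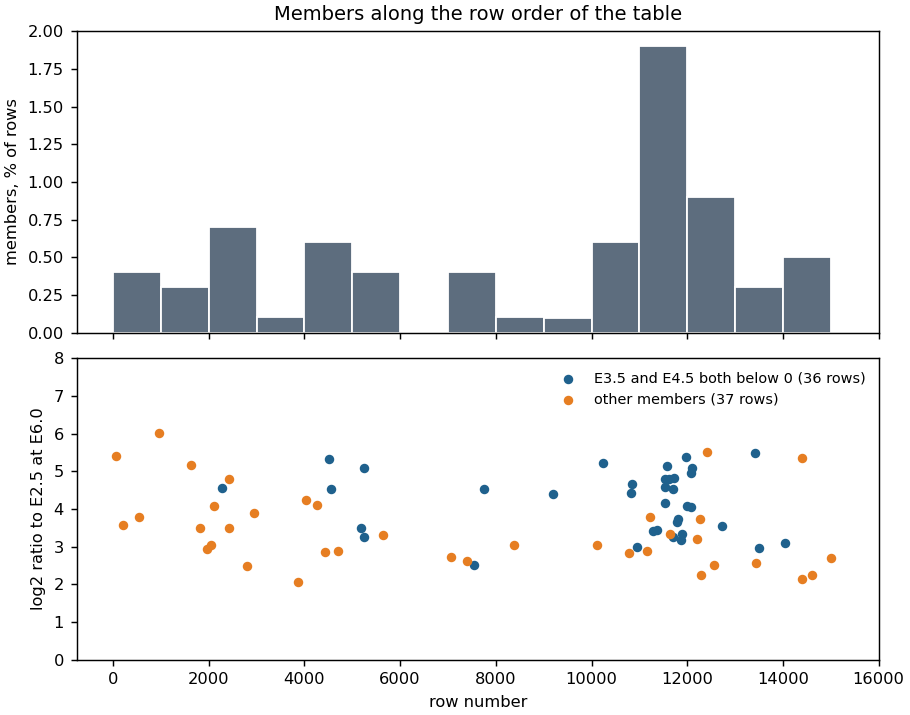
Top, share of rows that are members (percent, vertical axis) in stretches of 1000 rows along the table (horizontal axis, row number); bottom, log2 ratio at E6.0 of each member at its row number, blue where E3.5 and E4.5 were both below 0. The stretch from row 11001 to 12000 reaches 1.91%, and 16 of its 19 rows are blue.

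The rows are next grouped by the sign of their early values, which the rule used, as were the late values; the medians are a description. The 36 rows below 0 at both E3.5 and E4.5 had medians of 3.94 and 4.42 at the late stages. The 18 rows above 0 at both had 3.25 and 3.68, and the 19 rows of opposite signs 2.67 and 2.89. Of the 36 rows 16 come from rows 11001 to 12000; without that stretch the E6.0 medians were 4.49, 3.73 and 2.90 in the same order. The groups overlapped widely, with 2.51 to 5.48 in the first and 2.25 to 6.03 in the second at E6.0. At E4.75 the order was different: 12 of the 18 rows above 0 at both early stages were at least 2-fold higher, against 5 of the 36 below 0 at both. Of the 31 rows above 0 at E4.5, 16 were at least 2-fold higher at E4.75, and of the 42 below 0, 6 were. All stages share the E2.5 reference, so these values are not independent of each other. Shares at E4.75 over all rows with the same early signs were not counted, so nothing is read from the contrasts at E4.75.

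The lowest values at E4.5, where the rule has no lower limit, belonged to 4 unnamed rows. Row 11880 read -0.68, -1.54, 0.84, 2.87 and 3.17. Row 11533 read -0.93, -1.17, 0.14, 4.61 and 4.58. Row 11802 read -0.48, -1.15, 0.88, 3.39 and 3.75, and row 12724, given above, stood at -1.22 at E4.5. These 4 were at least 2-fold lower at E4.5, as were 9.26% of all rows. Row 11880 was thus low at E4.5, 1.79-fold higher at E4.75 and 9.02-fold higher at E6.0.

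Some rows lay just on either side of the limits. At E5.5 the nearest inside were Taz at 2.01, Rnf19a at 2.03 and Sp140 at 2.10, and the nearest outside Gm17762 at 1.999, row 12533 at 1.95 and row 9196 at 1.86. At E6.0 the nearest inside were Commd5 at 2.07, Pdrg1 at 2.15 and Rnf19a at 2.25, and the nearest outside Chd4 at 1.99, Asf1a at 1.95 and Pramel26 at 1.84. At E4.5 the nearest inside were Rnf19a at 0.92, Rpusd4 at 0.91 and Wbp4 at 0.89. Just outside at E4.5 stood Zeb1 at 1.01, row 9349 at 1.06 and Yif1b at 1.10. The Zeb1 row read 4.26 at E5.5, then 5.12 at E6.0 and was kept out by the limit at E4.5 alone.

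The rows outside the group with the most similar course were found by the root mean square distance to the median course of the 73 over the 5 stages. The nearest was the row labelled Fgfr1op2, at a distance of 0.75, which read 0.47, 1.39, 0.87, 3.15 and 3.80 and missed the limit at E4.5. The unnamed row 12533 followed at 0.79 and Yif1b at 0.87. Next came Cdc42 at 0.88, whose row read -0.47, -0.61, -0.05, 1.58 and 2.90 and missed the limit at E5.5, and Chd4 at 0.91. The others of the nearest 10 were Gm17762, Kpna7 and rows 8709, 9196 and 9349, at up to 1.01. The 73 rows themselves lay between 0.25 and 2.05 from their own median course, so 17 of them were farther from it than these 10 rows.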

How the data were processed

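The arrays set embryos of 5 stages against the E2.5 embryo, in 2 colours. Per the labels' protocols, pools of embryos gave mRNA that was reverse transcribed and amplified by PCR, with the named stage in Cy3 and E2.5 in Cy5. The authors deposited 15247 rows and 1 column per stage of log ratios, read here as log2; the sources used here do not give the base, background correction, normalization or averaging of arrays. The deposited columns have medians between -0.04 and 0.08. Intensities were not used, so signal is unknown here, and precision is limited by how many arrays there were.

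Rows with values in all columns (15217) were kept and the rule applied to them in Python 3.11.15 with pandas 2.3.3; figures were drawn with Matplotlib 3.10.9. The rule's code was tested on simulated data. Symbols came from the platform annotation, updated through the Entrez identifier for all 42 rows with 1 symbol. With 1 column per stage no test was run; counts past a fold and medians stand beside the same over all rows. Rows given with all values were the 12 highest by the mean of E5.5 and E6.0, the extremes at E4.75, at E4.5 and of the last step, those on a list, and those with another row of their symbol. Other members are given in part, and other rows of a member's symbol as a range with examples. The members and lists were chosen with earlier results of these data known. Alternatives were other limits, centring, scaling and log base, rows with 1 symbol, 1 late stage only, and 2 added after seeing the data. No sequences are shown, since rows that share a label did not agree.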

Additional observations from a re-analysis of the deposited data

Results flagged for a closer look

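Some rows of the group were past 2-fold in opposite directions at different stages; with 1 column per stage these differences were not tested. At E4.75 the row labelled Ehd4 stood at -1.79 and row 9198 at -1.05 (-0.95 with columns scaled to one spread), and both were above 2 at E5.5 and E6.0. At E4.5 row 11880 stood at -1.54, row 12724 at -1.22, row 11533 at -1.17 and row 11802 at -1.15, and all 4 were above 2 at E5.5 and E6.0. Rows 11533, 11802 and 11880 lie in the stretch from row 11001 to 12000.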

How the results depend on the processing

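The 73 rows became 114 with a late limit of 1.5, 44 with one of 3, 42 with early limits of 0.5 and 42 with rows of 1 symbol only; wider limits contain the 73 and narrower ones lie within them by construction. The 22 of 73 rows at least 2-fold higher at E4.75 became 44 of 114 with the late limit of 1.5 and 7 of 42 with early limits of 0.5. The count was 46 of 102 with values read as natural logarithms, 12 of 42 with rows of 1 symbol and 7 of 73 with a 4-fold limit at E4.75. Shares over all rows were not counted for early limits of 0.5, natural logarithms or rows of 1 symbol. The median at E4.75, 0.55, became 0.74 with a late limit of 1.5, 0.68 with one of 3, 0.27 with early limits of 0.5, 0.49 with centred columns, 0.46 with columns scaled to one spread, 0.87 with natural logarithms, 0.58 with rows of 1 symbol, 0.58 with E5.5 at least 2 only, and 0.72 without rows 11001 to 12000, an alternative added after seeing the data. With columns scaled to one spread 70 rows met the rule, 65 of them among the 73, and 6 rows past 2-fold at E4.75 came within it: Commd5, Ints6l, Abhd4, Nipbl and row 11898 from above and row 9198, at -0.95, from below. With natural logarithms 102 rows met it, 62 of them among the 73, and with E4.75 below 1 as a further limit, added after seeing the data, 51. No median reversed. No paired analysis was possible because there is 1 column per stage and no test. What signal over background would limit is unknown, as no intensities were used.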
